A study of Danio rerio with 15 samples.

Results

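The genes described here are the chromatin regulators and histone modifiers of the zebrafish array, 111 genes of the 8793 that its probe sets name by a single symbol. They were chosen by symbol, from the names of histone acetyltransferases and deacetylases, lysine and arginine methyltransferases, lysine demethylases, nucleosome remodellers, enzymes and binding proteins of DNA methylation, high mobility group proteins, and chromodomain, bromodomain and ING proteins. The rule itself uses no measured value, but the genes were chosen with earlier results of these data known. A total of 154 probe sets carried these symbols, and each gene was read by its brightest probe set over all arrays. Of the 111 genes, 82 had 1 probe set and 29 had 2 to 4.

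RNA came from cells sorted by fluorescence from the spinal cord region of zebrafish embryos at 27 hours post fertilization (hpf). V1 cells (CiA in the labels), which are inhibitory interneurons of the ventral spinal cord, were sorted from the line Tg(pax2a:GFP) after the pronephros region had been removed (6 arrays). All spinal neurons were sorted from the line Tg(elavl3:EGFP), whose EGFP follows elavl3, expressed once neurons leave the cell cycle (5 arrays). The trunk group is a mixture of spinal cord and surrounding tissues, and no transgenic line is named for it (4 arrays). All 3 groups had the same age, dissection level and growth conditions, and no treatment is named for any of them. V1 cells are a class of spinal neurons, and spinal neurons are contained in the trunk, so the groups overlap in content. The sorted V1 group is not simply a part of the all-neuron group. Its blood, vessel, neural crest and pigment genes read higher than in all neurons, with values given below. All 3 comparisons drew on the same 15 arrays, so any pair of them shares a group. The labels do not say whether arrays of a group came from separate clutches, so p-values measure only the spread between these arrays. The number of arrays limits the precision. Levels are log2 RMA values, in which a difference of 1 is a 2-fold difference, and a lower value in a mixed group can mean fewer cells of a type or less RNA per cell, which cannot be told apart.

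Chromatin is DNA wrapped around histones, and the proteins that act on it fall into roles. Writers add acetyl or methyl groups to histones, erasers take them off, readers bind them, and remodellers use ATP to move or evict nucleosomes. In neural tissue these proteins are known for work in large complexes, among them NuRD, which joins deacetylation to remodelling, BAF, which opens regulatory DNA, and Polycomb complexes, which keep lineage genes silent. High mobility group (HMG) proteins are abundant non-histone proteins that bend DNA or bind nucleosomes.

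Of 23 neuron genes, 21 were higher in V1 and 22 in all neurons than in trunk, and 0 were lower. Against all neurons 6 of them were lower in V1 and 0 higher. The pan-neuronal gene elavl3 read 10.09 to 11.23 on V1 arrays, 9.79 to 10.76 on all-neuron arrays and 8.49 to 9.44 on trunk arrays, and the V1 gene en1b read 10.83 to 11.49, 9.37 to 9.79 and 7.95 to 8.33. Of 15 genes of spinal neuron classes, 3 were higher and 11 lower in V1 than in all neurons, 7 higher and 3 lower in V1 than in trunk, and 14 higher and 1 lower in all neurons than in trunk. The genes of GABA synthesis gad1b and gad2, markers of inhibitory neurons, were lower in V1 than in all neurons (-1.30 and -1.63, adjusted p = 0.00171 and 7.67e-06) and higher in V1 than in trunk (1.36 and 1.01, adjusted p = 0.000883 and 0.000466). The inhibitory transporter gene slc32a1 was higher in V1 than in both (0.41 and 2.47, adjusted p = 0.0207 and 3.21e-09), and the en1b paralog en1a read 2.76 to 3.06 on V1 arrays and 3.33 to 3.77 on trunk arrays. Genes of other cell types also differed between the groups. The mean level of 26 muscle genes was 6.80 to 7.72 on V1 arrays, 7.32 to 9.46 on all-neuron arrays and 10.99 to 11.21 on trunk arrays, with all-neuron arrays 1 to 3 at 9.15, 9.46 and 9.18 and arrays 4 and 5 at 7.32 and 7.57. The mean of 21 blood and vessel genes was 6.59 to 7.78 on V1 arrays, 4.41 to 4.49 on all-neuron arrays and 6.86 to 7.48 on trunk arrays. The mean of 13 neural crest and pigment genes was 7.36 to 7.91, 5.81 to 6.23 and 6.60 to 7.03, and that of 18 skin genes was 5.75 to 6.60, 4.92 to 6.72 and 6.60 to 7.45. The part that these cells play in the differences of chromatin genes was not tested, except where a value is given beside a gene. A control probe set, AFFX-Dr-U43284-1_s_at, split the trunk arrays into arrays 1 and 2 (8.02 and 8.16) and arrays 3 and 4 (5.63 and 5.71). On the arrays of the 2 named lines it read 10.16 to 10.76 (all neurons) and 4.98 to 5.59 (V1). The labels do not say what separates the trunk pairs, and the cause was not tested. Calls that were lost with either pair alone, or with the all-neuron arrays of low muscle signal alone, are named with the genes or, for the 111 genes, together after them.

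Chromatin genes were more often higher than lower in neurons than in trunk cells. A gene was called where limma's adjusted p, taken over all probe sets tested, was under 0.05. In V1 cells against trunk cells 46 of the 111 genes were higher, or 41.4% against 23.3% of all genes. In the same comparison 15 were lower, or 13.5% against 20.6%, and 50 did not pass. All spinal neurons against trunk cells gave 42 genes higher, or 37.8% against 20.8% of all genes, and 9 lower, or 8.11% against 25.4%. The median log2 difference of the 111 genes was 0.30 for V1 minus trunk and 0.27 for all neurons minus trunk, beside -0.03 and -0.06 over all genes. The 111 genes were also brighter, with a median level of 7.60 beside 6.17 over all genes. The shares were not matched for brightness, and its part in them was not tested.

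Ranges of array values were apart for fewer genes than were called, except among genes lower in all neurons than in trunk. No overlap was found in 34 genes higher and 6 lower for V1 against trunk, where 15.9% and 13.7% of all genes had none, and in 34 higher and 10 lower for all neurons against trunk, where the shares were 18.9% and 22.4%. Most differences were small. A log2 difference of 1 or more was called in 7 genes higher and 2 lower for V1 against trunk, where 6.16% and 5.77% of all genes passed that rule. For all neurons against trunk it was called in 2 higher and 2 lower, where 6.78% and 9.6% of all genes passed. The counts depended on how arrays were scaled to each other. After cyclic loess between arrays, 29 genes were higher and 11 lower in V1 than in trunk, with 18.9% and 22% of all genes called, and the median difference was 0.13. All neurons against trunk then gave 34 higher and 13 lower, with 19% and 26.4% of all genes called, and a median of 0.12. Among all tested probe sets, in place of genes, 22% were higher and 18% lower for V1 against trunk, and 20.8% and 20.6% for all neurons against trunk. With array medians made equal the counts were 47 and 14 for V1 against trunk and 48 and 8 for all neurons against trunk. Shares of all genes were not taken for that scaling.

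V1 cells and all spinal neurons differed in few chromatin genes. V1 cells were higher in 8 genes, or 7.21% against 15.2% of all genes, and lower in 9, or 8.11% against 9.02%. The median difference was 0.05, beside 0.01 over all genes, and 94 of the 111 did not pass the test. Differences ran from -1.06 to 1.37, and 1 gene was higher and 1 lower by 1 or more, where 3.97% and 2.1% of all genes passed that rule. The ranges of arrays did not overlap for 4 genes higher and 4 lower, against 9.44% and 5.3% of all genes. Over all tested probe sets 12.7% were higher and 9.3% lower.

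**Figure D1:**
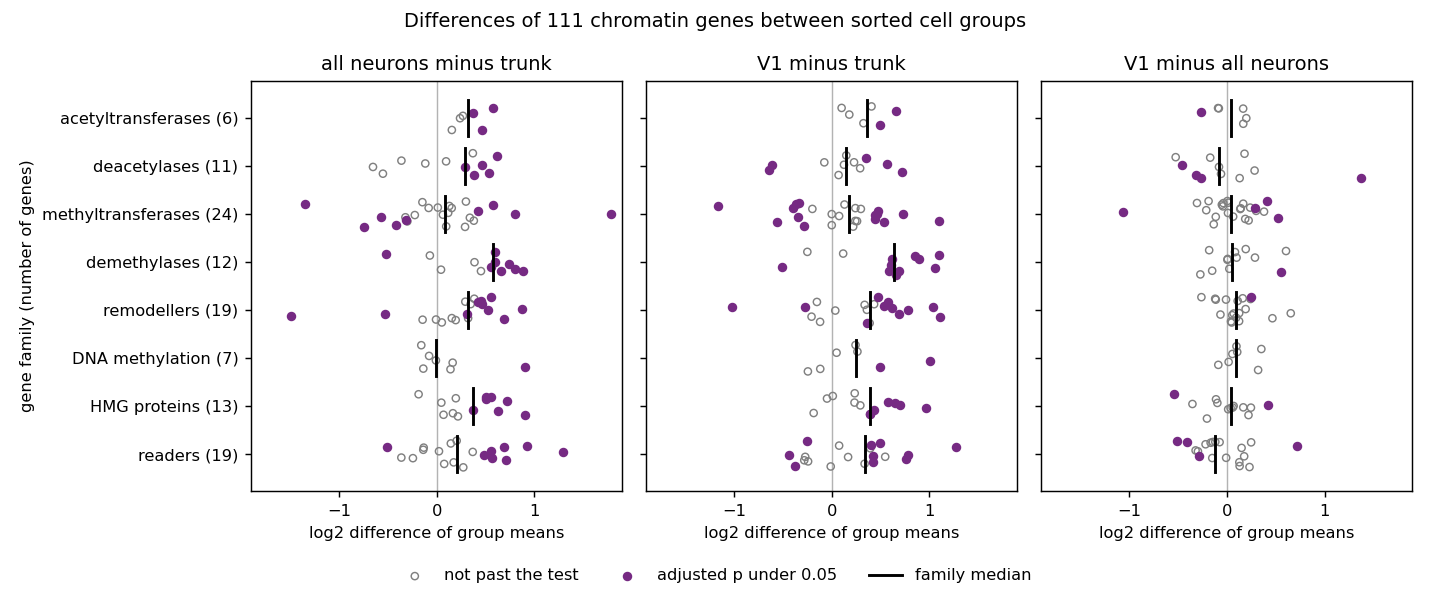
Log2 differences of group means (x axis) for the 111 chromatin genes, sorted into 8 families (y axis, with the number of genes), in each of the 3 comparisons. Each point is 1 gene, filled where the adjusted p was under 0.05, and black bars are family medians. Points lie to the right of 0 for most families in both comparisons with trunk, and close around 0 for V1 minus all neurons.

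**Figure D2:**
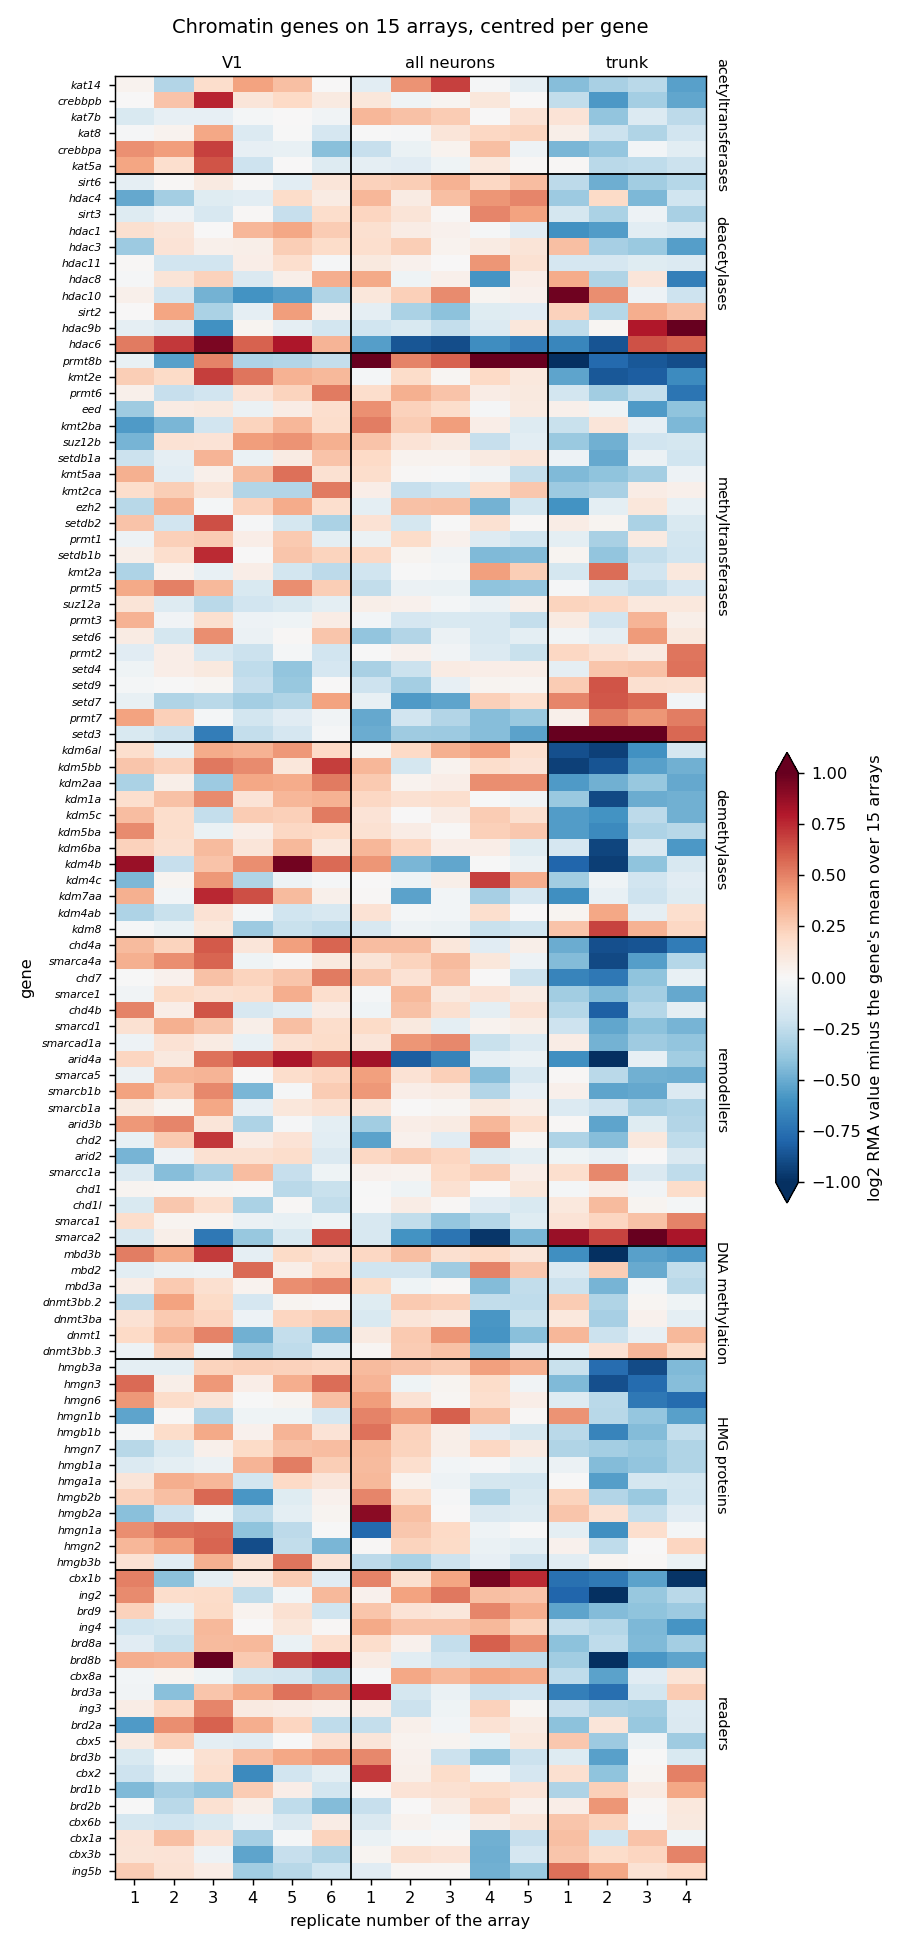
Log2 RMA values of the 111 genes (rows, grouped by family) on the 15 arrays (columns, by group and replicate number), each minus the gene's mean over all arrays, with red above and blue below that mean and colours at their darkest from a deviation of 1. Trunk arrays are mostly blue, with setd3, smarca2, smarca1 and kdm8 among the red exceptions, and hdac6 and hdac9b divide trunk arrays 1 and 2 from 3 and 4.

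Among the acetyltransferases, crebbpb was higher in both neuron groups than in trunk cells. This gene encodes a CREB-binding protein, a coactivator that acetylates histone H3 tails at enhancers, in mammals together with its relative EP300. It read 9.46 to 10.21 on V1 arrays (median 9.61), 9.56, 9.41, 9.48, 9.56 and 9.46 on all-neuron arrays, and 9.21, 8.88, 9.11 and 8.93 on trunk arrays. Every neuron array lay above every trunk array. The group means were 9.69 ± 0.27 (SD, n = 6), 9.49 ± 0.07 (SD, n = 5) and 9.03 ± 0.15 (SD, n = 4). The log2 difference from trunk was 0.66 for V1 (SE 0.12, adjusted p = 0.000529, 1.58-fold) and 0.46 for all neurons (SE 0.13, adjusted p = 0.00883, 1.38-fold), while V1 and all neurons differed by 0.20 (adjusted p = 0.255). The call for all neurons ended after cyclic loess (0.29, adjusted p = 0.0561). A second, much dimmer crebbpb probe set, with group means between 4.19 and 4.36, did not pass in any comparison.

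Its paralog crebbpa did not pass in any comparison. It read 7.97 to 9.07 on V1 arrays (median 8.56), 8.15, 8.32, 8.42, 8.69 and 8.34 on all-neuron arrays and 7.92, 8.0, 8.36 and 8.28 on trunk arrays, with all groups overlapping. The difference of V1 from trunk was 0.41 (95% interval 0.01 to 0.80, adjusted p = 0.0932), so a difference as large as that of crebbpb lies within the interval. Of the 6 acetyltransferases, 2 were higher in V1 than in trunk (crebbpb and kat14) and 3 were higher in all neurons than in trunk (crebbpb, kat14 and kat7b), and 0 were lower. The shares higher were 33.3% and 50%, against 23.3% and 20.8% of all genes, of which 20.6% and 25.4% were lower.

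The gene kat14, whose mammalian counterpart is a subunit of the ATAC acetyltransferase complex, differed from trunk by 0.50 in V1 (adjusted p = 0.0237) and 0.58 in all neurons (adjusted p = 0.0116). The MYST-family enzyme gene kat7b differed from trunk by 0.37 in all neurons (adjusted p = 0.00783), and was lower in V1 than in all neurons by 0.27 (adjusted p = 0.0482). The kat14 call in V1 ended without trunk array 1 or 4 (adjusted p up to 0.0685) and after cyclic loess (0.41, adjusted p = 0.0684). The kat7b call between V1 and all neurons ended without any 1 of 12 arrays, namely all-neuron arrays 1, 2, 3 and 5, each V1 array, and trunk arrays 3 and 4 (adjusted p 0.0530 to 0.106), and its call against trunk ended after cyclic loess (0.21, adjusted p = 0.0713).

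Against trunk, deacetylases gave calls in both directions in V1 and only higher calls in all neurons. Of 11 genes, 3 were higher and 2 lower in V1 than in trunk, or 27.3% and 18.2%, against 23.3% and 20.6% of all genes. In all neurons 5 were higher than in trunk, or 45.5% against 20.8% of all genes, and 0 were lower, against 25.4%. The class I enzyme gene hdac1, a catalytic subunit of NuRD and Sin3 complexes, read 11.43 to 11.82 on V1 arrays (median 11.64), 11.59, 11.51, 11.47, 11.42 and 11.31 on all-neuron arrays, and 10.83, 10.87, 11.32 and 11.29 on trunk arrays. Trunk arrays 1 and 2 stood lowest, and only V1 arrays were clear of all trunk arrays. It was higher than trunk by 0.56 in V1 (SE 0.11, adjusted p = 0.000846) and by 0.38 in all neurons (SE 0.12, adjusted p = 0.0148). Both calls ended after cyclic loess (0.22 and 0.25, adjusted p = 0.227 and 0.175). The call in all neurons also ended without trunk array 1 or 2 (adjusted p = 0.0550 to 0.0607), and the difference was 0.16 (adjusted p = 0.333) against trunk arrays 3 and 4 only.

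The sirtuin gene sirt6, which encodes a nuclear NAD-dependent deacetylase, had a different level in each group. It read 6.60 to 6.82 on V1 arrays (median 6.72), 6.94, 6.95, 7.05, 6.91 and 7.01 on all-neuron arrays and 6.44, 6.21, 6.35 and 6.42 on trunk arrays, with no overlap between any pair of groups. All neurons were above trunk by 0.62 (SE 0.08, adjusted p = 8.87e-06, 1.53-fold), V1 was above trunk by 0.35 (SE 0.07, adjusted p = 0.00127), and V1 was below all neurons by 0.26 (SE 0.07, adjusted p = 0.0126). The mitochondrial sirtuin gene sirt3 and the class IIa gene hdac4 were also higher in all neurons, by 0.47 (adjusted p = 0.00301) and 0.53 (adjusted p = 0.00946) over trunk. These were dimmer genes, at most 4.55 for sirt3 and 5.54 for hdac4 on any array. Both were lower in V1 than in all neurons, by 0.32 (adjusted p = 0.0338) and 0.46 (adjusted p = 0.0233). Their V1 calls ended without single arrays, for sirt3 when V1 array 1, 2, 3 or 5 was left out, or all-neuron array 4 or 5 (adjusted p 0.0539 to 0.100) and for hdac4 when V1 array 2 was left out, or all-neuron array 4 or 5 (adjusted p 0.0519 to 0.0634). The sirt3 call of V1 also ended after cyclic loess (-0.28, adjusted p = 0.0621).

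Trunk arrays fell into 2 pairs for the deacetylase genes hdac6 and hdac9b and were spread more evenly for hdac10. The gene hdac6, whose product deacetylates tubulin in the cytoplasm, read 5.34 and 5.13 on trunk arrays 1 and 2 and 6.63 and 6.59 on arrays 3 and 4. The class IIa gene hdac9b read 3.53 and 3.81 on the first pair and 4.59 and 4.94 on the second, while hdac10, a polyamine deacetylase in mammals, read 6.85 and 6.35 on the first and 5.83 and 5.67 on the second. Against all 4 trunk arrays V1 was higher in hdac6 by 0.72 (adjusted p = 0.0307) and lower in hdac9b by 0.61 (adjusted p = 0.0338) and in hdac10 by 0.64 (adjusted p = 0.0159). Against arrays 3 and 4 only, the hdac6 difference was 0.04 (adjusted p = 0.882) and that of hdac10 was -0.21 (adjusted p = 0.383), and against arrays 1 and 2 only that of hdac9b was -0.06 (adjusted p = 0.775). These calls also ended without single arrays, for hdac6 without V1 array 3 or 5 or trunk array 1 or 2 (adjusted p 0.0565 to 0.144), for hdac9b without V1 array 3 or 6 or trunk array 3 or 4 (adjusted p 0.0518 to 0.143), and for hdac10 without trunk array 1 or 2 (adjusted p 0.0542 to 0.0640). The hdac9b call also ended after cyclic loess (-0.52, adjusted p = 0.0812). The dim hdac11 was higher in all neurons than in trunk by 0.30 (adjusted p = 0.0258), which was lost without trunk array 1 or 2 or all-neuron array 4 (adjusted p 0.0511 to 0.0685).

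The methyltransferases, 24 genes with the Polycomb complex 2 core among them, gave calls in both directions, as all genes did. In V1 against trunk 7 were higher and 7 lower (29.2% each, against 23.3% and 20.6% of all genes), with a median of 0.18. In all neurons against trunk 4 were higher and 5 lower (16.7% and 20.8%, against 20.8% and 25.4% of all genes). The median there was 0.08 and became -0.04 after cyclic loess. Higher in both neuron groups was kmt2e, which encodes a SET-domain protein that binds methylated histone H3 lysine 4 through a PHD finger. It read 9.30 to 9.81 on V1 arrays (median 9.45), 9.10, 9.30, 9.13, 9.32 and 9.22 on all-neuron arrays and 8.59, 8.27, 8.29 and 8.49 on trunk arrays. All neuron arrays exceeded all trunk arrays. The difference from trunk was 1.09 in V1 (SE 0.10, adjusted p = 7.69e-07, 2.14-fold) and 0.80 in all neurons (SE 0.11, adjusted p = 1.98e-05, 1.74-fold), and a second kmt2e probe set was higher by 0.60 in each.

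The opposite pattern held for setd3, which in mammals encodes a methyltransferase of a histidine in actin. It read 8.06 to 8.74 on V1 arrays (median 8.56), 8.26, 8.40, 8.39, 8.32 and 8.22 on all-neuron arrays, and 9.77, 9.75, 9.81 and 9.33 on trunk arrays. No neuron array reached the lowest trunk array. V1 was lower than trunk by 1.16 (SE 0.12, adjusted p = 2.18e-06, 2.24-fold lower) and all neurons by 1.35 (SE 0.13, adjusted p = 6.02e-07, 2.55-fold lower). A second setd3 probe set was also lower, by 0.94 and 1.09. Muscle genes were high in trunk as well, and their part in the result was not tested. The muscle mean on all-neuron arrays 1 to 5, beside the setd3 values above, was 9.15, 9.46, 9.18, 7.32 and 7.57.

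The arginine methyltransferase genes each had their own order. The gene prmt8b, whose mammalian counterpart is largely restricted to the nervous system and tethered to the plasma membrane, read 4.63 to 5.66 on V1 arrays (median 4.90), 6.25, 5.66, 5.76, 6.44 and 6.22 on all-neuron arrays and 4.13, 4.39, 4.32 and 4.28 on trunk arrays. Trunk arrays lay below all neuron arrays, and the highest V1 array touched the lowest all-neuron array. All neurons exceeded trunk by 1.79 (SE 0.19, adjusted p = 1.76e-06, 3.45-fold), the largest positive difference among the 111 genes in that comparison, and V1 exceeded trunk by 0.73 (SE 0.18, adjusted p = 0.00463). Highest in trunk was prmt7, which encodes a monomethylating enzyme. It read 6.56 to 7.15 on V1 arrays (median 6.72), 6.24, 6.56, 6.46, 6.33 and 6.38 on all-neuron arrays and 6.80, 7.27, 7.20 and 7.26 on trunk arrays. All neurons were lower than trunk by 0.74 (SE 0.13, adjusted p = 0.000233), without overlap, and V1 by 0.33 (adjusted p = 0.0454), a call that ended without any 1 of 10 arrays, namely all-neuron arrays 3 to 5, V1 arrays 3 to 6 and trunk arrays 2 to 4 (adjusted p 0.0535 to 0.131).

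Further methyltransferase genes gave smaller differences. The arginine methyltransferase gene prmt6 was higher than trunk by 0.46 in V1 (adjusted p = 0.0169) and 0.57 in all neurons (adjusted p = 0.00496). Lower in both neuron groups than in trunk were setd7 (-0.56 and -0.56, adjusted p = 0.0287 and 0.0313), setd9 (-0.40 and -0.41, adjusted p = 0.0125 and 0.0115) and prmt2 (-0.35 and -0.31, adjusted p = 0.00854 and 0.0186), of which prmt2 read at most 3.31 on any array and setd9 at most 5.15. SETD7 is a mammalian lysine methyltransferase of histone H3 lysine 4 and of other proteins. On all-neuron arrays 1 to 5 setd7 read 7.09, 6.60, 6.63, 7.40 and 7.32, and on trunk arrays 7.65, 7.78, 7.73 and 7.13. With all-neuron arrays 4 and 5 only, its difference from trunk was -0.21 (adjusted p = 0.520). Those 2 arrays held less muscle signal, whose part in the setd7 values was not tested. Calls that ended without single arrays were setd7 in V1 (V1 array 2, 4 or 5 or trunk array 1, 2 or 3, adjusted p 0.0519 to 0.0930), setd7 in all neurons (all-neuron array 2 or 3 or trunk array 1, 2 or 3, adjusted p 0.0698 to 0.0915), prmt6 in V1 and prmt2 in all neurons (each without trunk array 4, adjusted p = 0.0722 and 0.0765), and setd9 in V1 (without trunk array 2, adjusted p = 0.0573).

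Polycomb repressive complex 2, which methylates histone H3 lysine 27, had 4 core genes among the members. The means of ezh2, eed and suz12b were higher in both neuron groups than in trunk, and those of the dim suz12a were lower. Not all of these differences passed the test. The catalytic subunit gene ezh2 read 8.59 to 9.24 on V1 arrays (median 9.07), 8.77, 9.16, 9.17, 8.40 and 8.68 on all-neuron arrays and 8.27, 8.77, 8.98 and 8.79 on trunk arrays. These ranges overlapped. Its differences from trunk were 0.30 in V1 (95% interval -0.07 to 0.67, adjusted p = 0.191) and 0.13 in all neurons (95% interval -0.26 to 0.52, adjusted p = 0.608). The scaffold subunit gene eed was higher in all neurons than in trunk by 0.43 (adjusted p = 0.0214), which ended without all-neuron array 1 or trunk array 3 or 4 (adjusted p 0.0556 to 0.0854) and after cyclic loess (0.31, adjusted p = 0.0916). On V1 arrays eed read 7.02 to 7.55 and on trunk arrays 6.81 to 7.43. The paralogs suz12a and suz12b, whose products are needed for the enzyme's activity, were named after their values were seen. In V1 against trunk suz12b was higher by 0.48 (adjusted p = 0.0242) and suz12a lower by 0.28 (adjusted p = 0.0105), and in all neurons against trunk they differed by 0.34 (adjusted p = 0.112) and -0.14 (adjusted p = 0.179). V1 arrays of suz12b read 6.12 to 7.03 and trunk arrays 6.10 to 6.41, and those of the dim suz12a read 4.15 to 4.55 and 4.53 to 4.64, so both pairs overlapped. Both V1 calls were lost after cyclic loess (0.40 and -0.18, adjusted p = 0.0613 and 0.0923), and that of suz12b without V1 array 5 or trunk array 1 or 2 (adjusted p 0.0531 to 0.0810).

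Demethylases were the family with the largest share of genes higher in neurons. Of 12 genes, 9 were higher than trunk in V1 and 7 in all neurons, or 75% and 58.3%, against 23.3% and 20.8% of all genes. In each comparison 1 was lower, or 8.33%, against 20.6% and 25.4% of all genes, and the medians were 0.64 and 0.58. After cyclic loess the counts were 8 higher and 1 lower in each, with medians of 0.45 and 0.43. The gene kdm1a, which encodes the LSD1 enzyme that removes methyl groups from histone H3 lysine 4 in CoREST and NuRD complexes, read 9.25 to 9.58 on V1 arrays (median 9.42), 9.31, 9.26, 9.28, 9.11 and 9.07 on all-neuron arrays and 8.74, 8.21, 8.61 and 8.63 on trunk arrays. The neuron arrays did not overlap the trunk arrays. The difference from trunk was 0.85 in V1 (SE 0.10, adjusted p = 8.53e-06, 1.81-fold) and 0.66 in all neurons (SE 0.11, adjusted p = 0.000121, 1.58-fold).

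The KDM5 genes, whose products remove methyl groups from trimethylated histone H3 lysine 4, were higher in neurons as well. The largest difference was that of kdm5bb, which read 9.19 to 9.77 on V1 arrays (median 9.45), 9.41, 8.90, 9.11, 9.25 and 9.21 on all-neuron arrays and 8.14, 8.21, 8.53 and 8.60 on trunk arrays. There was no overlap with trunk. V1 exceeded trunk by 1.09 (SE 0.13, adjusted p = 7.79e-06, 2.13-fold) and all neurons by 0.81 (SE 0.14, adjusted p = 0.000174, 1.75-fold). Its paralog kdm5ba differed by 0.62 and 0.60 (adjusted p = 0.000238 and 0.000396) and kdm5c by 0.69 and 0.60 (adjusted p = 0.000272 and 0.000958), each again without overlap. Both kdm5ba and kdm5c were named after their values were seen.

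Demethylases of histone H3 lysine 27 and lysine 36 gave like differences, and of these kdm6ba and kdm2aa were named after their values were seen. The lysine 27 demethylase gene kdm6ba exceeded trunk by 0.66 in V1 and 0.56 in all neurons (adjusted p = 0.00111 and 0.00438). The lysine 36 demethylase gene kdm2aa exceeded trunk by 0.59 and 0.74 (adjusted p = 0.00972 and 0.00239), and its V1 call ended after cyclic loess (0.45, adjusted p = 0.0505). For kdm6al, a lysine 27 demethylase gene, probe sets disagreed. Its brightest probe set was higher than trunk by 0.89 in V1 and 0.88 in all neurons (adjusted p = 0.000119 and 0.000152), another differed by 0.14 and 0.17 and did not pass, and one more was lower in V1 by 0.30 (adjusted p = 0.0261). The mean of its probe sets differed by 0.24 in V1 (adjusted p = 0.0558). The only demethylase gene called lower was kdm8, which encodes a JmjC-domain protein. It was lower than trunk by 0.51 in V1 and 0.52 in all neurons (adjusted p = 0.00111 and 0.00116), with every trunk array between 5.50 and 5.97 and every neuron array between 4.93 and 5.40. The dim kdm4ab and kdm4c did not pass against trunk, and kdm4ab read 4.46 to 4.91 on V1 arrays and 4.67 to 5.15 on trunk arrays. The brightest kdm4b probe set was higher than trunk by 1.06 in V1 (adjusted p = 0.00189) and did not pass in all neurons (0.45, adjusted p = 0.154). In V1 the other kdm4b probe sets differed from trunk by 0.01 to 0.23 and did not pass.

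Among the 19 remodeller genes 9 were higher and 2 lower in V1 than in trunk (47.4% and 10.5%, against 23.3% and 20.6% of all genes). In all neurons 8 were higher and 2 lower than in trunk (42.1% and 10.5%, against 20.8% and 25.4% of all genes). The largest positive difference in both was that of chd4a, which encodes the ATPase of NuRD. It read 9.54 to 10.04 on V1 arrays (median 9.79), 9.73, 9.73, 9.53, 9.31 and 9.48 on all-neuron arrays and 8.93, 8.54, 8.56 and 8.73 on trunk arrays, with no overlap between neurons and trunk. It exceeded trunk by 1.11 in V1 (SE 0.12, adjusted p = 2.43e-06, 2.16-fold) and 0.87 in all neurons (SE 0.12, adjusted p = 3.34e-05, 1.83-fold). The gene chd7, which encodes another CHD-family ATPase, read 8.38 to 8.90 on V1 arrays (median 8.63), 8.66, 8.53, 8.67, 8.39 and 8.17 on all-neuron arrays and 7.72, 7.67, 7.99 and 8.31 on trunk arrays. It was higher by 0.69 in V1 (SE 0.14, adjusted p = 0.00101) and 0.56 in all neurons (SE 0.15, adjusted p = 0.00534), where trunk array 4 overlapped the all-neuron range. A second chd7 probe set did not pass (0.09 and 0.10), and the mean of both differed by 0.33 in all neurons (adjusted p = 0.0552).

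The alternative ATPases of the BAF complex had opposite directions. The gene smarca4a, encoding a BRG1 protein, read 9.83 to 10.46 on V1 arrays (median 10.10), 10.00, 10.10, 10.20, 9.99 and 9.82 on all-neuron arrays and 9.44, 8.97, 9.33 and 9.59 on trunk arrays. All trunk arrays lay below all neuron arrays. It was higher than trunk by 0.78 in V1 (SE 0.14, adjusted p = 0.000362, 1.72-fold) and 0.69 in all neurons (SE 0.15, adjusted p = 0.00125, 1.61-fold), and a second probe set was higher by 0.81 and 0.67. The gene smarca2, encoding a BRM protein, read 6.07 to 7.43 on V1 arrays (median 6.63), 6.63, 6.19, 6.06, 5.82 and 6.33 on all-neuron arrays and 7.65, 7.46, 8.05 and 7.61 on trunk arrays. Here the trunk arrays lay above all neuron arrays. It was lower than trunk by 1.02 in V1 (SE 0.21, adjusted p = 0.00128, 2.03-fold lower) and 1.49 in all neurons (SE 0.22, adjusted p = 5.17e-05, 2.80-fold lower). A second, dim smarca2 probe set differed by -0.23 in V1 (adjusted p = 0.0296) and -0.12 in all neurons (adjusted p = 0.290).

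Of 5 further BAF subunit genes, all named after their values were seen, 3 were higher in both neuron groups than in trunk and 2 did not pass. The gene smarcd1 was higher than trunk by 0.62 in V1 and 0.46 in all neurons (adjusted p = 3.30e-05 and 0.000612), smarce1 by 0.58 and 0.53 (adjusted p = 6.59e-05 and 0.000175), and smarcb1a by 0.36 and 0.31 (adjusted p = 0.00316 and 0.0108). Both smarcb1a calls ended after cyclic loess (0.13 and 0.14, adjusted p = 0.226 and 0.222). The paralog smarcb1b differed from trunk by 0.43 and 0.32 (adjusted p = 0.0687 and 0.191), and the dim smarcc1a by -0.21 and 0.05 (adjusted p = 0.288 and 0.815). The ISWI ATPase gene smarca1 was lower than trunk by 0.28 in V1 (adjusted p = 0.0184), a call that ended without trunk array 4 (adjusted p = 0.0757), and by 0.52 in all neurons (adjusted p = 0.000185). The ARID-domain gene arid4a, whose product belongs to Sin3 complexes in mammals, was higher in V1 than in trunk by 1.04 (adjusted p = 0.0068), with V1 arrays at 8.08 to 8.80 and trunk arrays at 6.85 to 7.90. Its all-neuron arrays ranged from 7.16 to 8.82 and did not differ from trunk past the threshold (0.39, adjusted p = 0.311), and against trunk arrays 3 and 4 only the V1 difference was 0.71 (adjusted p = 0.138).

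**Figure D3:**
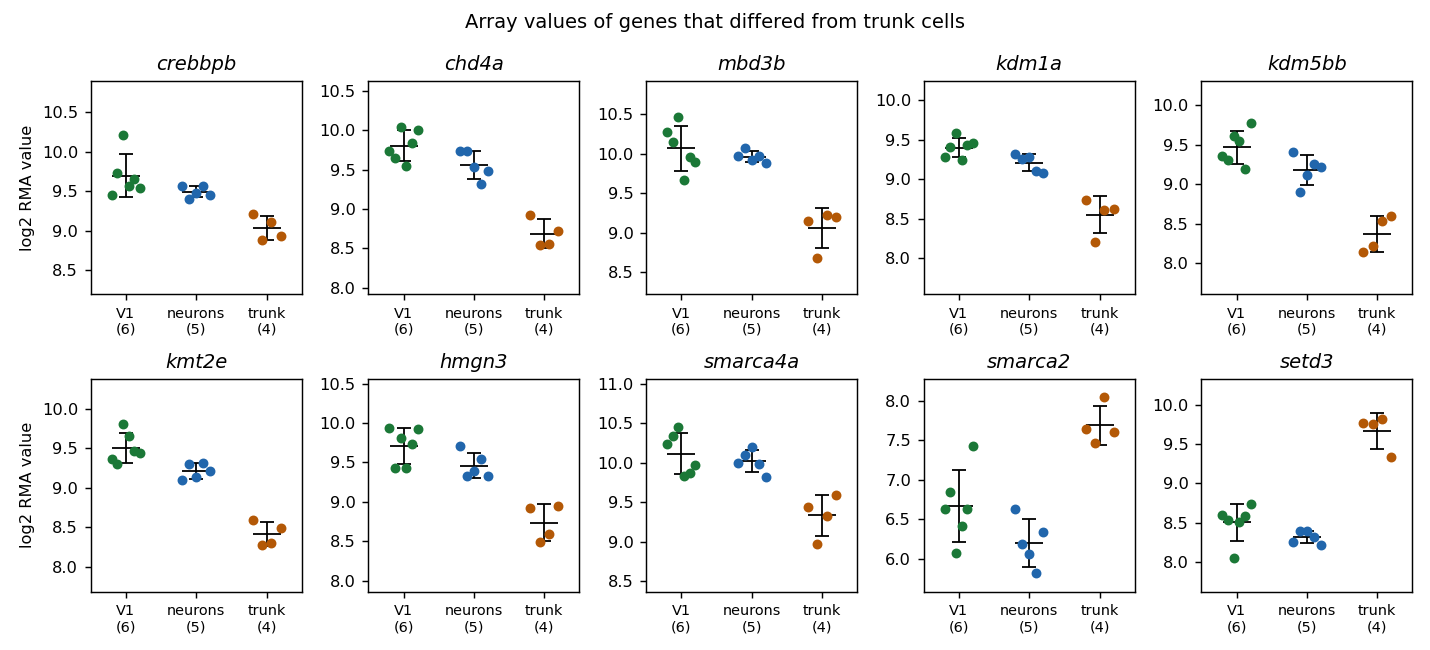
Log2 RMA values (y axis, a span of 2.7 in every panel) of 10 genes on each V1, all-neuron and trunk array (points), with the group mean and SD (bars). For crebbpb, chd4a, mbd3b, kdm1a, kdm5bb, kmt2e, hmgn3 and smarca4a all trunk arrays lie below all neuron arrays, and for smarca2 and setd3 all lie above.

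Of the 7 genes of DNA methylation, mbd3b was higher in both neuron groups than in trunk, mbd3a in V1, and 5 did not pass the test. The share higher was 28.6% in V1 and 14.3% in all neurons, against 23.3% and 20.8% of all genes. The MBD3 proteins are NuRD subunits. The gene mbd3b read 9.67 to 10.47 on V1 arrays (median 10.05), 9.97, 10.07, 9.93, 9.97 and 9.89 on all-neuron arrays and 9.16, 8.68, 9.22 and 9.19 on trunk arrays. No trunk array reached a neuron array. It was higher than trunk by 1.01 in V1 (SE 0.14, adjusted p = 3.35e-05, 2.01-fold) and 0.90 in all neurons (SE 0.15, adjusted p = 0.000111, 1.87-fold). Its paralog mbd3a was higher in V1 than in trunk by 0.50 (adjusted p = 0.00673), without overlap, which ended after cyclic loess (0.23, adjusted p = 0.148). The remaining 5 genes, dnmt1, dnmt3ba, dnmt3bb.2, dnmt3bb.3 and mbd2, did not pass in any comparison.

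The maintenance methyltransferase gene dnmt1, which copies DNA methylation behind the replication fork, varied within every group. It read 8.62, 8.76, 8.92, 7.95, 8.19 and 7.97 on V1 arrays 1 to 6, 8.51, 8.69, 8.86, 7.84 and 8.0 on all-neuron arrays 1 to 5 and 8.76, 8.21, 8.35 and 8.75 on trunk arrays 1 to 4. V1 arrays 4 to 6 and all-neuron arrays 4 and 5 stood lowest. The mean of 34 cell cycle genes on the same arrays was 7.71, 7.91, 7.86, 7.19, 7.41 and 7.47 in V1, 7.81, 7.84, 7.79, 7.19 and 7.40 in all neurons and 7.95, 7.59, 7.61 and 7.77 in trunk, so the same V1 and all-neuron arrays were low in both. The V1 and trunk means of dnmt1 differed by -0.12 (95% interval -0.61 to 0.38), those of all neurons and trunk by -0.14 (95% interval -0.65 to 0.38), and those of V1 and all neurons by 0.02 (95% interval -0.45 to 0.48). Cell cycle genes themselves gave 0 higher and 5 lower calls of 34 in V1 against trunk and 1 higher and 1 lower in all neurons against trunk.

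**Figure D4:**
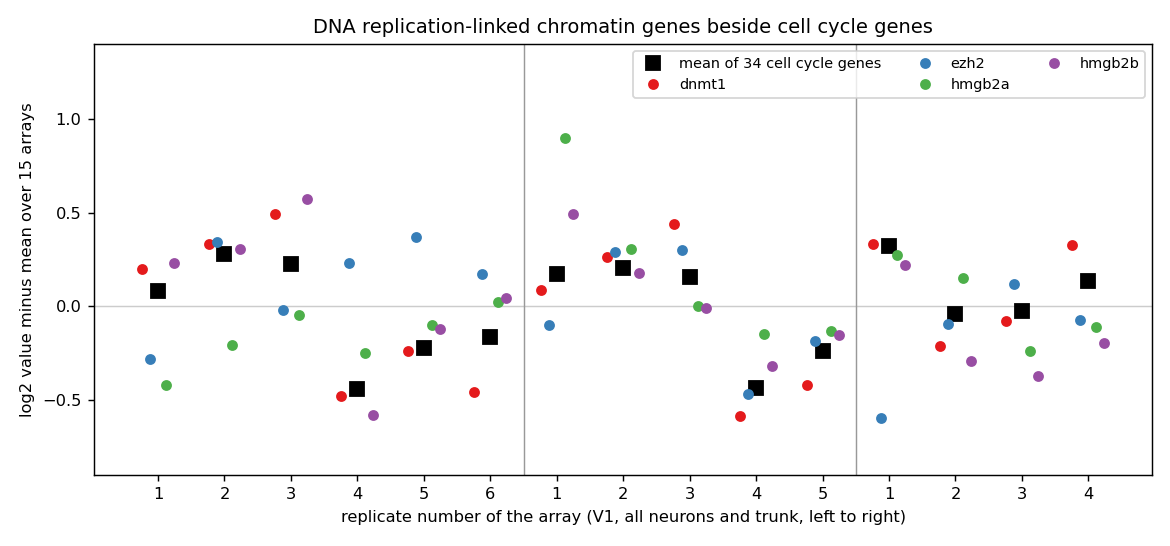
Log2 values of dnmt1, ezh2, hmgb2a and hmgb2b and the mean of 34 cell cycle genes (black squares), each minus its mean over 15 arrays (y axis), on each array (x axis, by group and replicate number). On V1 arrays 4 to 6 and all-neuron arrays 4 and 5 dnmt1 and the cell cycle mean lie below 0, and ezh2 and hmgb2b are spread on both sides of 0 on the V1 arrays.

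HMG genes were higher in neurons than in trunk in 7 of 13 cases (53.8%) in each comparison, against 23.3% and 20.8% of all genes. In each 0 were lower, against 20.6% and 25.4% of all genes, and the medians were 0.39 and 0.37. After cyclic loess 3 were higher in V1 and the median fell to 0.01, while 6 were higher and 1 lower in all neurons with a median of 0.23. The gene hmgn3, which encodes a nucleosome-binding protein, read 9.42 to 9.93 on V1 arrays (median 9.77), 9.71, 9.33, 9.40, 9.55 and 9.33 on all-neuron arrays and 8.92, 8.49, 8.60 and 8.94 on trunk arrays, without overlap. It was higher by 0.97 in V1 (SE 0.13, adjusted p = 2.55e-05, 1.96-fold) and 0.72 in all neurons (SE 0.14, adjusted p = 0.000444, 1.65-fold).

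The DNA-bending HMG-box gene hmgb3a read 10.84 to 11.18 on V1 arrays (median 11.16), 11.26, 11.22, 11.19, 11.35 and 11.28 on all-neuron arrays and 10.71, 10.17, 10.05 and 10.49 on trunk arrays. It was higher than trunk by 0.70 in V1 (SE 0.12, adjusted p = 0.000254) and 0.90 in all neurons (SE 0.13, adjusted p = 2.63e-05, 1.87-fold), and 2 other hmgb3a probe sets were higher in all neurons by 0.94 and 0.66. In V1 those 2 differed from trunk by 0.65 (adjusted p = 0.00147) and 0.19 (adjusted p = 0.239). V1 minus all neurons was -0.20 for the brightest probe set (adjusted p = 0.231), without overlap. For the other 2 it was -0.29 (adjusted p = 0.136) and -0.47 (adjusted p = 0.00842). The HMGB2 genes, abundant in dividing cells, did not pass. The gene hmgb2a read 7.84 to 8.28 on V1 arrays, 9.16, 8.56, 8.26, 8.11 and 8.13 on all-neuron arrays and 8.53, 8.41, 8.02 and 8.15 on trunk arrays, and hmgb2b differed from trunk by 0.24 in V1 (95% interval -0.19 to 0.66) and 0.20 in all neurons (95% interval -0.25 to 0.64).

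Of the 19 reader genes, 7 were higher and 3 lower in V1 than in trunk (36.8% and 15.8%, against 23.3% and 20.6% of all genes). In all neurons 7 were higher and 1 lower than in trunk (36.8% and 5.26%, against 20.8% and 25.4% of all genes). The bromodomain gene brd8b, whose mammalian counterpart is a subunit of the NuA4 acetyltransferase complex, read 7.98 to 8.77 on V1 arrays (median 8.25), 7.81, 7.62, 7.53, 7.50 and 7.47 on all-neuron arrays and 7.37, 6.41, 7.14 and 7.20 on trunk arrays. The 3 groups did not overlap. V1 exceeded trunk by 1.27 (SE 0.18, adjusted p = 3.80e-05, 2.41-fold), the largest positive difference among the 111 genes in that comparison, and all neurons exceeded trunk by 0.55 (SE 0.19, adjusted p = 0.0253). The smaller of these calls ended without all-neuron array 1 or trunk array 2 (adjusted p = 0.0590 to 0.102) and after cyclic loess (0.41, adjusted p = 0.059).

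A heterochromatin protein gene, cbx1b, was higher in neurons than in trunk. HP1 proteins bind histone H3 methylated at lysine 9. It read 5.63 to 6.54 on V1 arrays (median 6.03), 6.53, 6.20, 6.43, 6.99 and 6.78 on all-neuron arrays and 5.29, 5.33, 5.50 and 5.05 on trunk arrays. Trunk arrays lay below the others, and V1 and all-neuron ranges overlapped. All neurons exceeded trunk by 1.29 (SE 0.18, adjusted p = 2.43e-05, 2.45-fold) and V1 by 0.78 (SE 0.17, adjusted p = 0.00186). The related gene cbx3b was lower in V1 than in trunk by 0.43 (adjusted p = 0.0274), a call that ended without V1 array 4, 5 or 6 or trunk array 4 (adjusted p 0.0509 to 0.0886).

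ING proteins read methylated histone H3 lysine 4 in acetyltransferase or deacetylase complexes. The gene ing2 was higher than trunk by 0.76 in V1 (adjusted p = 0.0012) and 0.92 in all neurons (adjusted p = 0.000254), without overlap. The gene ing4 was higher by 0.40 in V1 (adjusted p = 0.00534) and 0.69 in all neurons (adjusted p = 7.20e-05), of which the V1 call ended after cyclic loess (0.11, adjusted p = 0.443). In contrast, ing5b was lower by 0.38 in V1 (adjusted p = 0.0434) and 0.51 in all neurons (adjusted p = 0.0108), and its V1 call ended without all-neuron array 1, V1 array 4, 5 or 6, or trunk array 1, 2 or 4 (adjusted p 0.0508 to 0.137). The Polycomb reader gene cbx8a was higher in all neurons than in trunk by 0.49 (adjusted p = 0.00495), and cbx6b, which read at most 4.88 on any array, was lower in V1 than in trunk by 0.25 (adjusted p = 0.024), a call that ended without trunk array 1 or 2 (adjusted p 0.0670 to 0.0813) and after cyclic loess (-0.16, adjusted p = 0.119).

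The comparison of V1 cells with all spinal neurons sets this class beside neurons at large. All V1 arrays came from Tg(pax2a:GFP) and all arrays of spinal neurons from Tg(elavl3:EGFP), so cell class and line cannot be told apart in it. The 8 genes that were higher in V1 were hdac6, brd8b, kdm7aa, prmt5, hmgb3b, prmt7, kmt2e and smarca1. The largest difference was that of hdac6, which read 6.33 to 6.94 on V1 arrays (median 6.64) and 5.44, 5.14, 5.10, 5.37 and 5.30 on all-neuron arrays. The groups did not overlap, and V1 was higher by 1.37 (SE 0.24, adjusted p = 0.00055, 2.59-fold). Trunk arrays 3 and 4 lay within the V1 range and trunk arrays 1 and 2 within the all-neuron range. Against trunk arrays 3 and 4 only, all neurons were lower by 1.34 (adjusted p = 2.00e-05), where the difference from all 4 trunk arrays was -0.65 (adjusted p = 0.0569). The control probe set named above was high on the arrays where hdac6 was low, at 10.16 to 10.76 in all neurons and 8.02 and 8.16 on trunk arrays 1 and 2, and read 4.98 to 5.71 on the V1 arrays and trunk arrays 3 and 4, and its part in the result was not tested.

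The gene brd8b was higher in V1 than in all neurons by 0.72 (SE 0.17, adjusted p = 0.00593, 1.64-fold), without overlap. The arginine methyltransferase genes prmt5, which encodes a symmetric dimethylating enzyme, and prmt7 were higher by 0.53 (SE 0.11, adjusted p = 0.00321) and 0.41 (SE 0.12, adjusted p = 0.0204). V1 arrays of prmt7 lay only just above all all-neuron arrays (lowest 6.5648, beside a highest all-neuron value of 6.5605). Those of prmt5, at 7.18 to 7.83, overlapped 6.92 to 7.27. The V1 level of prmt5 also exceeded trunk, by 0.44 (adjusted p = 0.00786), which ended after cyclic loess (0.29, adjusted p = 0.0629). The HMG-box gene hmgb3b was higher by 0.42 (SE 0.10, adjusted p = 0.00547). The JmjC demethylase gene kdm7aa was higher by 0.56 (SE 0.15, adjusted p = 0.0151), and 0.61 over trunk (adjusted p = 0.00751), at 4.86 to 5.64 on V1 arrays. A second kdm7aa probe set differed by -0.15 between V1 and all neurons, and the mean of both by 0.20 (adjusted p = 0.146).

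The last of these 8 calls rested on single arrays. The kmt2e difference of 0.29 (adjusted p = 0.0443) ended without any 1 of 10 arrays, namely each all-neuron array, V1 arrays 3 to 6 and trunk array 4 (adjusted p 0.0508 to 0.0974), and after cyclic loess (0.20, adjusted p = 0.154). The smarca1 difference of 0.25 (adjusted p = 0.0387) ended when V1 array 1, 2 or 3 was left out, or all-neuron array 2, 3 or 4 (adjusted p 0.0559 to 0.106), and with array medians made equal (0.20, adjusted p = 0.0776).

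**Figure D5:**
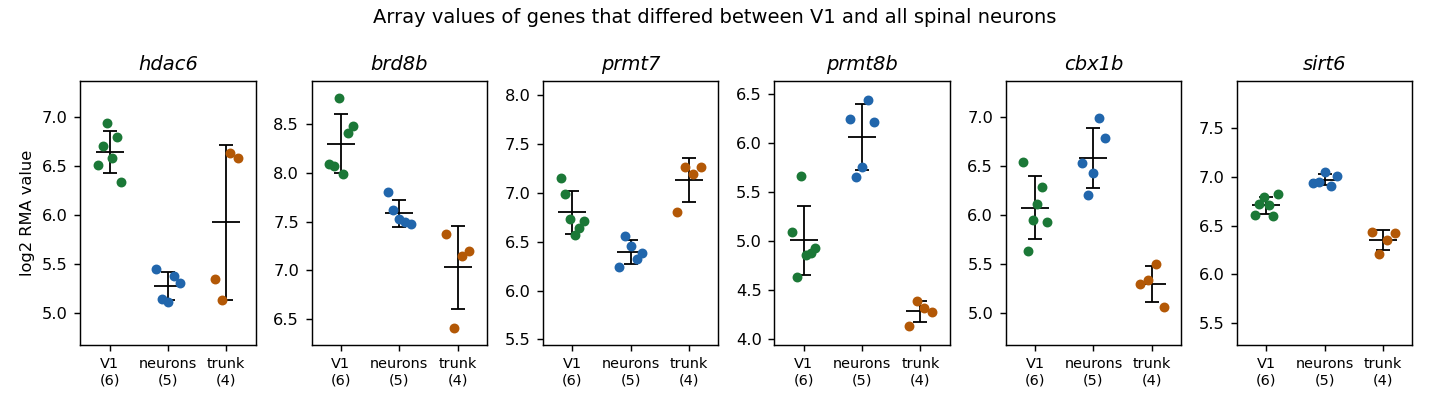
Log2 RMA values (y axis, a span of 2.7 in every panel) of 6 genes called between V1 and all spinal neurons, on each array (points), with the group mean and SD (bars). V1 arrays lie above all-neuron arrays for hdac6, brd8b and, only just, prmt7, and below them for sirt6. The genes prmt8b and cbx1b are lower with overlap, and the trunk arrays of hdac6 fall into 2 pairs.

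Lower in V1 than in all neurons were prmt8b, hmgn1b, cbx1b, hdac4, cbx8a, sirt3, ing4, kat7b and sirt6. The largest difference was that of prmt8b, by 1.06 (SE 0.17, adjusted p = 0.000335, 2.08-fold lower), with its array values given above. The nucleosome-binding gene hmgn1b was lower by 0.54 (SE 0.16, adjusted p = 0.0241), cbx1b by 0.51 (SE 0.16, adjusted p = 0.0323) and cbx8a by 0.41 (SE 0.11, adjusted p = 0.0157). All neurons exceeded trunk in hmgn1b by 0.56 (adjusted p = 0.0201), and V1 did not differ from trunk past the threshold (0.01, adjusted p = 0.966).

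Several of the lower calls were close to the threshold. That of ing4 (-0.29, adjusted p = 0.044) ended without any 1 of 11 arrays, namely each all-neuron array, V1 arrays 1, 2, 4, 5 and 6 and trunk array 3 (adjusted p 0.0504 to 0.0945). That of cbx1b ended when V1 array 2, 3 or 6 was left out, or all-neuron array 4 or 5 (adjusted p 0.0559 to 0.0947). That of hmgn1b ended when V1 array 1 was left out, or all-neuron array 1 or 3 (adjusted p 0.0518 to 0.0648), and its call against trunk ended without trunk array 2, 3 or 4 (adjusted p 0.0511 to 0.0780). Set against all-neuron arrays 4 and 5 only, the hmgn1b difference was -0.34 (adjusted p = 0.345). The blood and vessel genes gave 19 of 21 higher and 0 lower calls in V1 against all neurons, the neural crest and pigment genes 10 of 13 higher and 0 lower, and the muscle genes 0 higher and 21 of 26 lower, and the part of such cells in these differences was not tested.

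Restricting the groups to fewer arrays, chosen after the data were seen, changed the counts, and fewer arrays alone lower the number of calls. With trunk arrays 1 and 2 only, 36 genes were higher and 11 lower in V1, where 19.9% and 19.4% of all genes were called, and 30 and 9 in all neurons, where 17.8% and 23.2% were called. With trunk arrays 3 and 4 only, 33 and 8 passed in V1 (17.3% and 13.9% of all genes), and 35 and 12 in all neurons (17.4% and 19.9%). With all-neuron arrays 4 and 5 only, 29 were higher and 9 lower than trunk (18.2% and 21.9% of all genes), and 6 and 6 passed between V1 and all neurons (13% and 7.7%).

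Some calls of the named genes were lost in those subsets. With trunk arrays 1 and 2 only, they were in V1 cbx3b, hdac9b, ing4, kat14, prmt5, prmt6, prmt7, smarca1 and smarcb1a (adjusted p 0.0552 to 0.775). In all neurons they were crebbpb, eed, hdac11, hdac4, hmgn1b, kat14, kat7b, prmt2 and smarcb1a (adjusted p 0.0522 to 0.355). With trunk arrays 3 and 4 only, the lost calls in V1 were arid4a, cbx3b, cbx6b, hdac10, hdac6, ing2, ing5b, kat14, kdm2aa, kdm7aa, mbd3a, setd7, setd9, suz12a and suz12b (adjusted p 0.051 to 0.882), and in all neurons they were brd8b, cbx8a, chd7, hdac1, hdac11, ing5b, kat14, setd7 and setd9 (adjusted p 0.0572 to 0.333). With all-neuron arrays 4 and 5 only, calls against trunk were lost for brd8b, chd7, crebbpb, eed, hdac1, hmgn1b, kat14, kat7b, kdm6ba, prmt6, setd7, setd9 and smarcb1a (adjusted p 0.0605 to 0.52), and calls between V1 and all neurons for hmgb3b, hmgn1b, ing4, kat7b, kdm7aa, kmt2e, prmt7, sirt6 and smarca1 (adjusted p 0.0601 to 0.514). The sirt6 call between V1 and all neurons was also lost with a trended robust prior (adjusted p = 0.0604), and that of cbx1b with array weights (adjusted p = 0.0557).

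Genes with more than 1 probe set allowed a check between probe sets. In V1 against trunk, 14 called genes had another probe set, which was called in the same direction for 6, in the opposite direction for 1 (kdm6al) and not at all for 7. All neurons against trunk had 10 such genes, with 4 in the same direction, 0 opposite and 6 without a call. In V1 against all neurons, 0 of 3 such genes had a call from another probe set. No detection call came with the values, so dim probe sets may lie at background.

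Of other genes of chromatin complexes, 85 were measured of a list of 147. In V1 against trunk 25 were higher (29.4%, against 23.3% of all genes) and 10 lower (11.8%, against 20.6%), with a median of 0.12. In all neurons against trunk 16 were higher (18.8%, against 20.8%) and 12 lower (14.1%, against 25.4%), with a median of 0.14. In V1 against all neurons 8 were higher (9.41%, against 15.2%) and 2 lower (2.35%, against 9.02%), with a median of 0.03. The gene with the largest difference was nap1l4a, a nucleosome assembly protein gene, whose difference from trunk was -2.10 in V1 (adjusted p = 2.50e-07) and -2.42 in all neurons (adjusted p = 9.58e-08). It read 8.02 to 8.76 on V1 arrays, 7.90 to 8.75 on all-neuron arrays and 10.5 to 10.9 on trunk arrays. The topoisomerase gene top2b, whose enzyme is known from postmitotic neurons, was higher by 1.19 in V1 (adjusted p = 1.26e-06) and 0.91 in all neurons (adjusted p = 2.14e-05), and the NuA4 subunit gene mrgbp was higher by 1.11 (adjusted p = 2.10e-06) and 0.88 (adjusted p = 2.63e-05).

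BAF accessory genes on that list did not share a direction. The gene ss18 was higher than trunk by 0.86 in V1 (adjusted p = 3.41e-05) and 0.81 in all neurons (adjusted p = 6.51e-05). In contrast dpf2 and bcl7ba were lower in all neurons than in trunk, by 1.02 (adjusted p = 1.45e-05) and 1.2 (adjusted p = 9.85e-05), and higher in V1 than in all neurons, by 0.75 (adjusted p = 0.000332) and 0.68 (adjusted p = 0.0105). The gene actl6a, whose mammalian product belongs to the BAF form of progenitor cells, was lower in V1 than in all neurons by 0.98 (adjusted p = 0.00753). That call was lost with all-neuron arrays 4 and 5 only (-0.78, adjusted p = 0.146). V1 and trunk differed in actl6a by -0.29 (adjusted p = 0.386), and all neurons exceeded trunk by 0.69 (adjusted p = 0.0482). The call against trunk ended without any 1 of 9 arrays (adjusted p 0.0514 to 0.155) and after cyclic loess (0.55, adjusted p = 0.121). It was also lost with all-neuron arrays 4 and 5 only (0.48, adjusted p = 0.359) and with trunk arrays 1 and 2 only (0.27, adjusted p = 0.520). The nucleophosmin gene npm1a, a histone chaperone of the nucleolus, was higher in V1 than in all neurons by 0.64 (adjusted p = 0.0091), a call that was lost after cyclic loess (0.48, adjusted p = 0.0561) and over the mean of its probe sets (0.22, adjusted p = 0.109).

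Polycomb complex 1 paralogs on the list went opposite ways. The gene phc2b was higher than trunk by 1.31 in V1 (adjusted p = 8.96e-05) and 0.68 in all neurons (adjusted p = 0.0159), whereas phc2a was lower by 0.70 (adjusted p = 0.0181) and 0.71 (adjusted p = 0.019). The phc2a calls ended without trunk array 2 in V1 (adjusted p = 0.0867) and without trunk array 1 or 2 in all neurons (adjusted p = 0.0506 to 0.0819), and both were lost with trunk arrays 3 and 4 only (adjusted p = 0.342 and 0.319), as was the phc2b call in all neurons (adjusted p = 0.140). The ribosomal oxygenase genes riox1 and riox2 were lower in V1 than in trunk, by 0.64 (adjusted p = 3.18e-05) and 0.91 (adjusted p = 5.36e-05).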

How the data were processed

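Sorted cells were dissociated with papain and their RNA went through 2 rounds of amplification before being hybridized to Affymetrix arrays for the zebrafish genome, as the labels' protocols say. The authors deposited log2 values, and the submitters' processing notes name RMA and Expression Console. Their versions and the chip definition were not given in the sources used here. Of 15617 probe sets, 115 controls were left out and 15502 tested.

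A model with a mean per group was fitted to the 15 arrays together (limma 3.58.1, R 4.3.3, lmFit and eBayes). Its moderated tests were 2-sided and adjusted by Benjamini and Hochberg's method in each comparison, over every probe set tested, with 0.05 as threshold. Standard errors and 95% intervals are the moderated ones. The steps were run on simulated data with independent normal noise on each array. That run does not cover linked arrays or signal of other cell types. Alternatives were other scalings, a dim filter, probe set means, array weights, another prior, a stricter threshold, only the groups compared, the replicate number as a block and omission of single arrays. Symbols came from the platform annotation, and all 111 were current.

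The members and lists were chosen with earlier results of these data known. Named genes were crebbpb and set regulators, in each comparison the 8 higher and 8 lower members with the largest called difference, no overlap and a higher mean of at least 5.52 (the median of all values), the largest called member of each family, members of counts of 5 or fewer, and up to 4 in each direction from the list of other chromatin genes. Set regulators that are not among the members were not analysed here. The rule gave 51 members, and 11 more (smarcd1, smarce1, smarcb1a, smarcb1b, smarcc1a, suz12a, suz12b, kdm5ba, kdm5c, kdm6ba and kdm2aa) were added after their values were seen. The genes kdm4ab, kdm4b and kdm4c were also mentioned after their values were seen, and lie outside the counts of named genes.

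Correlations of deviations ran from -0.135 to 0.356 between same-numbered arrays of different groups and from -0.295 to 0.276 between other arrays. The highest were those of all-neuron and V1 arrays 2 (0.356) and of all-neuron and trunk arrays 1 (0.302). The labels name no pairing, so the numbers were taken as names, and whether some same-numbered arrays were linked is not known. Promoter and protein sequences were not used here.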

Additional observations from a re-analysis of the deposited data

Results flagged for a closer look

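In 10 of 234 groups of array values, or 4.27%, of the named genes 1 array stood apart from the rest by Dixon's test, and chance alone flags about 1 in 20 groups. V1 array 3 did so for 4 genes. It read 10.21 for crebbpb, where the other V1 arrays lay between 9.46 and 9.73, 3.18 for hdac9b (others 3.61 to 3.82), 8.06 for setd3 (others 8.52 to 8.74) and 8.02 for nap1l4a (others 8.69 to 8.76). V1 array 1 read 6.12 for suz12b, below the others at 6.72 to 7.03. V1 array 6 read 7.56 for setd7, above the others at 6.82 to 7.08. Among trunk arrays, array 2 read 8.68 for mbd3b (others 9.16 to 9.22), array 1 read 6.80 for prmt7 (others 7.20 to 7.27) and array 4 read 9.33 for setd3 (others 9.75 to 9.81). All-neuron array 1 read 5.47 for cbx8a (others 5.81 to 5.88).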

How the results depend on the processing

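No called difference of a named gene changed sign under the alternatives run, and more members were higher than lower in both comparisons with trunk under each. The median over members of V1 minus all neurons went from 0.05 to -0.03 after cyclic loess, and its counts of 8 higher and 9 lower changed order under some alternatives, as with array weights (14 and 8). Array weights also gave 14 members lower in all neurons than in trunk. A threshold of 0.01 gave 4 higher and 1 lower for V1 against all neurons, 4 lower for V1 against trunk and 5 lower for all neurons against trunk. Cyclic loess gave 29 higher for V1 against trunk. With trunk arrays 3 and 4 only, a choice made after seeing the data, 8 were lower in V1 than in trunk. With the replicate number as a block, 5 members were lower in V1 than in all neurons and 7 lower in V1 than in trunk, and its other counts were 7, 42, 39 and 9. The labels give same-numbered arrays no link beyond the number, and such pairs correlated at -0.135 to 0.356. Omission of 1 array gave, for V1 against all neurons, 6 to 11 higher and 4 to 10 lower, for V1 against trunk 39 to 50 and 8 to 15, and for all neurons against trunk 35 to 46 and 8 to 12. Of 234 differences of named genes, 22 lost and 5 gained a call under cyclic loess, and 47 lost one at a threshold of 0.01. The cause of these changes was not tested. Shares over all genes were taken only for the main setting, cyclic loess against trunk and the restricted groups. Counts under the other alternatives therefore do not show whether members moved differently from all genes. Small differences on dim probe sets are the least certain, since 4 to 6 arrays a group and no detection call limit them.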
